A study of Mus musculus with 28 samples.

Results

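The subject is a set of 707 H3K27ac regions that were called in wild-type resistant cells and in no other cells of the series. H3K27ac is acetylated lysine 27 of histone H3. Merging every set of overlapping peaks over the 12 H3K27ac libraries (shared bases, at least 1) left 32703 regions, and a region was taken where all 3 Res libraries and 0 of the other 9 libraries had a peak. The regions were chosen by these H3K27ac peaks, so their presence in Res and absence elsewhere is a definition and not a result, and H3K27ac values of the 707 regions are given below as a description without a test. The 707 regions were 2.16% of all merged regions and 4.23% of the 16731 regions with a peak in 3 of 3 Res libraries.

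All cells were mouse lung adenocarcinoma cells grown in RPMI-1640 medium with serum. Res was the cell line labelled Resistant with a Wild-type genotype, described as PD-1-resistant; PD-1 is the immune checkpoint receptor that antibody therapy blocks. Sen was the cell line labelled Sensitive, also Wild-type. Res_Ctrl and Res_shFabp7 were the Resistant line with the genotypes Control and shFabp7 knockdown, a short hairpin RNA against Fabp7, which encodes a fatty acid binding protein. Each group had 3 libraries for H3K27ac and 3 for H3K9ac (acetylated lysine 9), which the labels call biological replicates. The labels do not say whether any line is 1 clone. Res is 1 set of cultures set against all others, so a feature of Res and a feature of those cultures cannot be told apart.

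Acetylation of H3 lysine 27 is laid down at active promoters and at active enhancers, the distal elements that raise transcription of genes that can lie far away. Acetylation of lysine 9 lies mostly at active promoters. Enhancer acetylation differs more between cell types and cell states than promoter acetylation does, and enhancers are usually assigned to genes by distance, which is an approximation.

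Peak numbers of the 12 H3K27ac libraries lay between 15856 and 28934, with 2.24 to 10.5 M reads (tags) inside peaks. The Res lists held 20657 ± 1382 peaks, against 20204 ± 3888 in Sen, 21348 ± 1524 in Res_Ctrl and 26391 ± 2967 in Res_shFabp7 (SD, n = 3 each). Set against the other 9 libraries pooled, which differ between their groups, the Res lists differed by -1991 peaks on average (two-sided exact permutation test, p = 0.382, where the smallest p possible is 0.00455). The labelled cell type was checked by H3K27ac peaks within 1 kb of marker gene ends. In every group 4 of 7 epithelial markers and 6 of 7 lung adenocarcinoma lineage markers had a peak in 3 of 3 libraries, but Nkx2-1, the defining lung lineage factor, had 0 peaks in all 12. The summed level of the lineage list was 837 to 893 CPM in Res (tags as CPM of all tags in that library's peaks), against 924 to 1238 elsewhere, and that of the epithelial list 1505 to 1633 in Res, against 1092 to 1969 elsewhere. The lineage markers did not go one way. Sox9 was at 115.9 to 152.3 CPM in peaks in Res, against 15.6 to 65.6 elsewhere. Foxa2, Gata6 and Hnf4a were lower in every Res library than in any other library. Of 9 immune markers 8 were at 0 in every group, among them Ptprc and Cd3e, and the summed level of the list was 73.5 to 84.2 CPM in peaks in Res and 94.8 to 127 elsewhere, all of it from Cd14. Of 9 fibroblast and endothelial markers, 8 were at 0 in Res and 9 in the other groups; Dcn had a peak of 15.1 CPM in peaks in 1 Res library. Of 7 neural and glial markers 5 were at 0 in every group, and their summed level was 53.4 to 64.5 CPM in peaks in Res and 74.8 to 167 elsewhere. Their part in the results below was not tested.

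Of the 93 members with H3K9ac in 3 of 3 Res libraries 61 had a gene start within 1 kb, so promoter sequence is shown for the 8 members with the most H3K27ac over a promoter, and for both Runx3 starts. The windows are the 150 bases before the start, 5′ to 3′ on the gene's strand, from RefSeq (GRCm38.p6, the mm10 assembly). Capitals mark matches on either strand to the motifs found in these windows: the GC box (GGGCGG), the CCAAT box (CCAAT), the ETS motif (CCGGAA) and the RUNX motif (TGTGGT). The Arhgef2 and Rbms3 windows hold no match to any of the 12 motifs searched.
Gli3 (chr13:15463573-15463722, + strand): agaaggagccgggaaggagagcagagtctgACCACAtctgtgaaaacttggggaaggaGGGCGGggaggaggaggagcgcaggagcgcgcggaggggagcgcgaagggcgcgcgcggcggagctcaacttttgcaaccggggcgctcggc
Sertad4 (chr1:192855753-192855902, - strand): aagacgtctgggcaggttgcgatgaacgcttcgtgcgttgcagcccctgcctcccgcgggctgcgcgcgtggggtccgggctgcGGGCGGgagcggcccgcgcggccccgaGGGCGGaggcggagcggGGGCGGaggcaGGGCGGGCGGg
Arhgef2 (chr3:88615993-88616142, + strand): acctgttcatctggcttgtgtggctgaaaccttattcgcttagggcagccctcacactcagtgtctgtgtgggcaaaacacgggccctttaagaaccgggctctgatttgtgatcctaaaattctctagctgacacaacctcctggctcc
Prelp (chr1:133921402-133921551, - strand): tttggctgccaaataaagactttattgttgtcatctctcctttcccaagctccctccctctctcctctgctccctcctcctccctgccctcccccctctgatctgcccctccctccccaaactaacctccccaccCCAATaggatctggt
Cyp1b1 (chr17:79715062-79715211, - strand): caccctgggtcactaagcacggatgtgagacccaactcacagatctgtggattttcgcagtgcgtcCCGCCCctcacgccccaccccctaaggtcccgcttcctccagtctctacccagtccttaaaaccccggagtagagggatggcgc
Meis1 (chr11:19018970-19019119, - strand): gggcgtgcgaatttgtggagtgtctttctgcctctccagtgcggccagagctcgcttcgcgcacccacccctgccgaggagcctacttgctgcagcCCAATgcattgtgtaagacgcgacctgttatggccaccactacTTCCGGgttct
Twist2 (chr1:91801311-91801460, + strand): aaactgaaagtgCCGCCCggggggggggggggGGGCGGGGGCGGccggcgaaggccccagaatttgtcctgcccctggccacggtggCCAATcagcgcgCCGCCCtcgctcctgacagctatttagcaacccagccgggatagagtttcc
Rbms3 (chr9:117252484-117252633, - strand): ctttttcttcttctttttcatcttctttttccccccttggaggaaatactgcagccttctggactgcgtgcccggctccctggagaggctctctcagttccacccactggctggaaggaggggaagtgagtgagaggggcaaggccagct
Runx3 upstream start (chr4:135120495-135120644, + strand): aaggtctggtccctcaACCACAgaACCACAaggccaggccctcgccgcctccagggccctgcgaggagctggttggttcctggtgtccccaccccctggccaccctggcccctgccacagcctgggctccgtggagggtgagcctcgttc
Runx3 downstream start (chr4:135152395-135152544, + strand): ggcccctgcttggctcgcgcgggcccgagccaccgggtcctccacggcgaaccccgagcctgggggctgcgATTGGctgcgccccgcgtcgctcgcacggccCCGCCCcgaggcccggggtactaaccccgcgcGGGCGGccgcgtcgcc
The 2 Runx3 windows are shown together because both lie in members and part in H3K9ac: the downstream one has GC boxes and a CCAAT box, the upstream one has neither and has 2 RUNX matches. Over the 300-base RefSeq windows (250 before to 50 after the start) that overlap members, 77 windows of 64 genes, the GC box was present in 58.4%, against 68.9% of windows in H3K27ac regions of 3 of 3 Res libraries and 46.2% of all windows. The ETS motif was present in 14.3% of the member windows, against 31.9% and 18.7%. The AP-1 motif (TGANTCA, the same on both strands) was present in 10.4%, against 4.66% and 6.99%, which is 8 member windows. The RUNX motif was present in 12.99% of the member windows, against 11.43% and 14.97%, so its share lay between those of the other sets. The CCAAT box was present in 35.06%, against 37.24% and 38.19%. Shares of the other motifs searched are not given here. The median number of CpG dinucleotides was 17 in member windows, 23 in windows of regions in 3 of 3 Res libraries and 13 in all windows. Matches are a description of the letters in these windows and not binding sites.

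H3K27ac at the 707 regions was moderate and similar between the Res libraries. The median region had 174, 134 and 130 raw tags in Res replicates 1, 2 and 3, or 24.6 CPM in peaks as the mean of the 3, against 40.7 for all regions in 3 of 3 Res libraries. The mean over the 3 libraries ran from 11.2 to 120 CPM in peaks, and the median coefficient of variation was 16.8%. The authors' score, which is 10 times the negative log10 of the peak caller's p-value and starts at 50, had a median of 90.1 for the weakest Res peak of a member, against 245 for all regions in 3 of 3 Res libraries. The members were thus nearer to the calling threshold than the regions they were drawn from. A score of 100 or more in all 3 Res libraries was reached by 308 members, and 124 had a score under 60 in at least 1.

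The regions with the most tags stood far above that threshold. The highest was a region of 6872 bases 8298 bases from Ppp3ca, the catalytic subunit alpha of the phosphatase calcineurin (chr3:136654545-136661416, between genes), with 748, 658 and 686 tags. It reached 120 ± 16.9 CPM in peaks (SD, n = 3). A region 16059 bases from Lpar1, a receptor for lysophosphatidic acid (chr4:58412699-58419193), had 668, 490 and 502 tags. One inside Dysf, which encodes the membrane repair protein dysferlin (chr6:84177781-84184631), had 657, 526 and 433 tags. All 3 were distal, and H3K9ac was called there in only 1 library of the series, Res replicate 2 at the Ppp3ca region with 105 tags.

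The other 5 of the 8 highest lay near or over Plcl1, Runx3, Sod3, Gli3 and Kcnb2. The start of Sod3, the extracellular superoxide dismutase (chr5:52362729-52368119), had 562, 438 and 359 H3K27ac tags. The start of Gli3, a transcription factor of the Hedgehog pathway (chr13:15461976-15466113), had 622, 377 and 358. Replicates differed most, among the regions named, at Arhgef2, a guanine nucleotide exchange factor (chr3:88613823-88618561): 296, 299 and 525 tags, or 66.6 ± 32.8 CPM in peaks (SD, n = 3). That member ends 190 bases from a region with a peak in all 12 libraries.

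**Figure D1:**
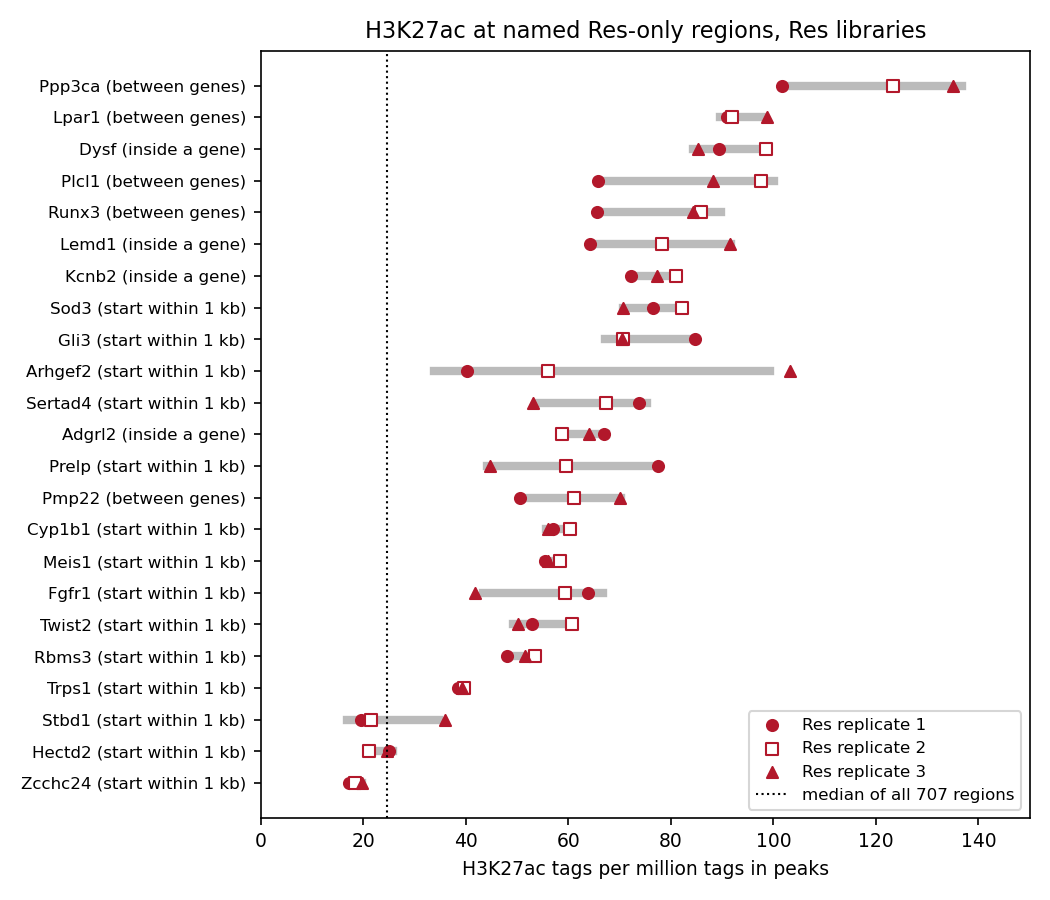
H3K27ac in each of the 3 Res libraries (x axis, CPM in peaks) at 23 named Res-only regions, labelled by the nearest gene and their place; symbols are libraries, grey bars the mean ± SD, and the dotted line the median of 24.6 over all 707 regions. The Ppp3ca region is highest at 120 and Arhgef2 has the widest spread; the other groups have no peak at these regions by definition.

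By place the set was distal. A protein-coding start lay within 1 kb of 91 members (12.9%), against 52.3% of regions in 3 of 3 Res libraries and 65.3% of regions in all 12 libraries. A further 287 (40.6%) lay inside a gene and 329 (46.5%) between genes, 152 of these over 50 kb from any gene. The annotation used gives gene ends and starts but no exons, so exon, intron or UTR is not stated. The median width was 2518 bases (1271 to 6872), against 3455 for regions in 3 of 3 Res libraries. Regions called only in Res_shFabp7, a set of 410 chosen in the same way, had a start within 1 kb in 8.78%. Only 17 regions were called only in Sen and 9 only in Res_Ctrl. The rule needs a peak in every library of a group, and depth differed between groups. Sen replicate 1 had 2.24 M tags in peaks, the fewest of the 12 libraries. Res libraries had 5.08 to 7.35 M and Res_Ctrl libraries 3.70 to 4.65 M. The part of depth in these counts was not tested.

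**Figure D2:**
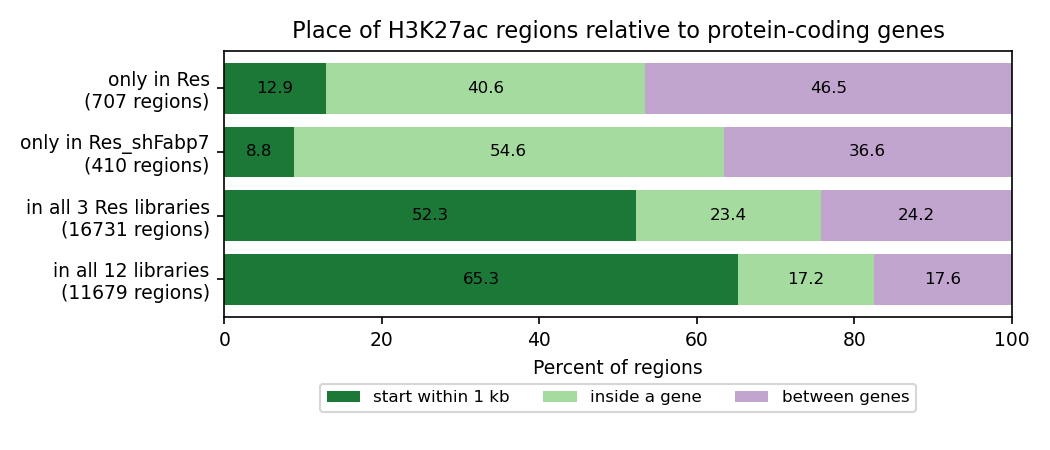
Share of H3K27ac regions (x axis, percent) by place relative to protein-coding genes, for the 707 Res-only regions, the 410 Res_shFabp7-only regions, the regions in all 3 Res libraries and those in all 12. A start lies within 1 kb in 12.9% of the Res-only regions and in 65.3% of the regions in all 12 libraries.

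H3K9ac was measured in separate libraries that the rule did not use. At the members an H3K9ac peak was called at 104, 154 and 159 regions in the 3 Res libraries, against 10, 11 and 11 in Sen, 1, 8 and 24 in Res_Ctrl and 3, 18 and 10 in Res_shFabp7. Every Res library was above every other library, although the Res H3K9ac lists were shorter (12684 to 13782 peaks) than those of Sen (15615 to 16457) and Res_shFabp7 (16529 to 18317); those of Res_Ctrl held 11771 to 16217. Over all regions in 3 of 3 Res libraries the order was another: 66.5 to 70.5% had an H3K9ac peak in a given Res library, against 73.5 to 76.8% in Sen, 61.6 to 75.8% in Res_Ctrl and 76.4 to 81.1% in Res_shFabp7.

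Most members had H3K27ac alone. No H3K9ac peak was called in any of the 12 libraries at 515 members (72.8%) and 93 (13.2%) had one in 3 of 3 Res libraries. H3K9ac was in 3 of 3 Res and 0 of the other 9 libraries at 62 members (8.77%). That pattern was present at 0.431% of all merged H3K27ac regions and 0.675% of those in 3 of 3 Res libraries. Counted over H3K9ac regions instead, 0.75% of all 20543 had it. The like pattern for the own group was present at 5 of the 17 Sen-only regions (29.4%). It was present at 0 of the 9 Res_Ctrl-only and 10 of the 410 Res_shFabp7-only regions (2.44%). An H3K9ac peak in at least 1 library outside Res was present at 34 members, and none of these lacked a peak in Res. H3K9ac was more frequent at starts, as in other sets of regions: 61 of the 91 members with a start within 1 kb (67.0%) had it in 3 of 3 Res libraries, against 32 of the 616 other members (5.20%). For all regions in 3 of 3 Res libraries these shares were 95.9% and 30.2%, above the members at both places, and for the Res_shFabp7-only regions, with H3K9ac in 3 of 3 Res_shFabp7 libraries, they were 66.7% and 3.74%.

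**Figure D3:**
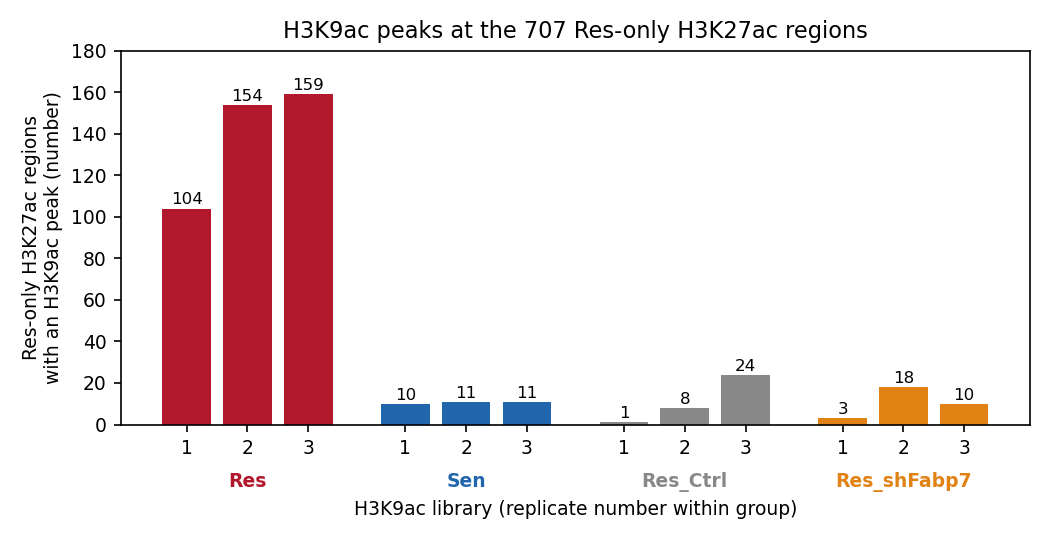
Number of the 707 Res-only H3K27ac regions with an H3K9ac peak (y axis) in each of the 12 H3K9ac libraries, by group and replicate (x axis). Res libraries hold 104 to 159, and no other library more than 24.

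Of the 8 members with the most H3K27ac among those whose H3K9ac region was also called only in Res, those at Meis1, Twist2, Fgfr1 and Arhgef2 lay at a start. Meis1, a homeobox transcription factor (chr11:19017892-19020813), had 408, 311 and 285 H3K27ac tags and 287, 341 and 365 H3K9ac tags in Res, with no peak of either mark elsewhere. Twist2, a basic helix-loop-helix factor of mesenchymal cells (chr1:91799242-91803260), had 389, 324 and 255 H3K27ac tags and 239, 253 and 278 H3K9ac tags. Fgfr1, a fibroblast growth factor receptor (chr8:25518024-25522590), had 469, 317 and 212 H3K27ac tags and 255, 292 and 371 H3K9ac tags. Arhgef2 had 78, 146 and 269 H3K9ac tags in Res at this member. A separate H3K9ac region at an Arhgef2 start could be tested in all 3 comparisons described below, so it had peaks in every group. Over the settings run its log2 ratio was 0.039 to 0.32 against Sen, -0.10 to -0.0049 against Res_Ctrl and -0.097 to 0.16 against Res_shFabp7. Both marks only in Res is the rule by which these members were taken, so that pattern is not a result.

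The other 4 of the 8 lay inside Kcnb2, Lemd1 and Adgrl2, and 11657 bases from Pmp22. Adgrl2, an adhesion G protein-coupled receptor (chr3:148986811-148991252, inside the gene, 32176 bases from its start), had 393, 435 and 501 H3K9ac tags in Res, the most of the 8. The member at Lemd1 (chr1:132194056-132198367) also holds the gene of the microRNA Mir135b. Lin28b, which blocks maturation of let-7 microRNAs, had 207, 61 and 99 H3K27ac tags at its start (chr10:45467473-45470598), a spread of 19.7 ± 8.36 CPM in peaks (SD, n = 3). Its H3K9ac, 106, 170 and 147 tags, was also called only in Res. Rbms3, an RNA-binding protein (chr9:117249279-117253201), and Prelp, a matrix proteoglycan (chr1:133918773-133924395), also had members over a start. Rbms3 had H3K9ac in 3 of 3 Res libraries and in Res_Ctrl replicate 3, and Prelp in 2 of 3 Res libraries and in no other.

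A start with H3K27ac only in Res could have H3K9ac in other groups. At Gli3 there were 480, 521 and 557 H3K9ac tags in Res, and peaks of 83 tags in Res_Ctrl replicate 3, 74 and 50 tags in Res_shFabp7 replicates 2 and 3 and none in Sen. Fgf2, a fibroblast growth factor (chr3:37347907-37349458), had 112, 148 and 139 H3K9ac tags in Res and 66 in Res_Ctrl replicate 3. Cyp1b1, a cytochrome P450 (chr17:79713737-79717839), had 174, 223 and 143 in Res, 185 in Sen replicate 2, 101 in Res_Ctrl replicate 3 and 63 in Res_shFabp7 replicate 2. A member 446 bases from the start of Col1a2, a chain of type I collagen (chr6:4506064-4508447), had 145, 107 and 89 H3K27ac tags in Res. That member had no H3K9ac peak in any library, but 1 of the 3 members nearest to Col1a2 had H3K9ac in 3 of 3 Res libraries.

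Changes in H3K9ac level were tested for H3K9ac regions with a peak in all 6 libraries of a comparison, with edgeR's quasi-likelihood test and Benjamini-Hochberg adjustment over all such regions. The 3 comparisons share the Res libraries and are not independent of each other. Few members could enter, since H3K9ac had to be called in both groups: 6 of 707 against Sen, 1 against Res_Ctrl and 3 against Res_shFabp7. Against Sen all 6 were higher in Res, where 28.1% of the 11185 tested regions were higher and 26.4% lower. The start of Sertad4 (chr1:192853606-192858639) had 105, 94.2 and 89.4 CPM in Res, against 13.7, 16.6 and 17.98 CPM in Sen (CPM of tags in tested regions, TMM-scaled), a log2 ratio of 2.54 ± 0.12 (SE, adjusted p = 2.8e-08). Trps1, a GATA-type repressor (chr15:50888428-50891102), had 62.1, 70.4 and 81.7 CPM in Res, against 13.5, 15.6 and 15.5 CPM in Sen, a log2 ratio of 2.25 ± 0.13 (SE, adjusted p = 1.56e-07). At both, the lowest Res library was over the highest Sen library by more than the spread within either group.

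Smaller differences were found at the other 4 against Sen. Stbd1, a glycogen-binding protein, had a log2 ratio of 1.88 ± 0.23 and Hectd2, a ubiquitin ligase, 1.47 ± 0.15. Zcchc24 had 0.70 ± 0.16 and Map3k8, a kinase upstream of MEK, 0.57 ± 0.15 (SE; largest of the 4 adjusted p-values 0.0066). Against Res_Ctrl the 1 tested member, at Camk1d, a calcium/calmodulin-dependent kinase, had a log2 ratio of 0.42 ± 0.15 (adjusted p = 0.0345), where 22.4% of tested regions were higher in Res and 21.3% lower. Against Res_shFabp7, where 26.5% of tested regions were higher and 24% lower, Hectd2 had 1.79 ± 0.14 and Camk1d 1.39 ± 0.15, and Nr2f1, an orphan nuclear receptor, had 0.12 ± 0.08 with an adjusted p of 0.244; its H3K9ac region (chr13:78196888-78200629) only touches the edge of the member (chr13:78200617-78205132). The Camk1d call against Res_Ctrl was lost without Res replicate 2, without Res_Ctrl replicates 1 or 3, with DESeq2 and with a re-centred offset for called length (log2 0.33, 0.37, 0.39, 0.42 and 0.22).

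The genes nearest to members were then read at their own starts. The 707 members had 554 distinct nearest genes, 95 of them nearest to 2 or more. Of these, 276 had a tested H3K9ac region at a start in Res against Sen: 159 (57.6%) were higher in Res and 29 (10.5%) lower, where 27.8% and 25.3% of the 9843 genes tested were. Against Res_Ctrl 111 of 258 (43.0%) were higher and 26 (10.1%) lower, where 23.6% and 18.1% of all genes were. Against Res_shFabp7 141 of 276 (51.1%) were higher and 23 (8.33%) lower, where 25.8% and 22% were. The median log2 ratio of the nearest genes was 0.27 against Sen, 0.16 against Res_Ctrl and 0.21 against Res_shFabp7, and that of all genes was -0.01, 0.01 and -0.01.

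These shares depended on how tags were scaled, since tags are counted over the length called in each library. An offset for that length moved the median log2 ratio of all regions to 0.27 against Sen, 0.04 against Res_Ctrl and 0.25 against Res_shFabp7. With it 207 of 276 nearest genes (75%) were higher against Sen and 1 lower, where 51.8% and 0.833% of all genes were. The count was 67 of 258 (26.0%) against Res_Ctrl, where 12.4% were, and 220 of 276 (79.7%) against Res_shFabp7, where 60.8% were. With the offset re-centred so that the median was back at 0, a setting chosen after seeing the data and meant wherever the offset is named below, 87 of 276 (31.5%) were higher and 8 (2.90%) lower against Sen, where 9.86% and 7.88% of all genes were. On the same scale 45 of 258 (17.4%) were higher against Res_Ctrl, where 8.56% were, and 95 of 276 (34.4%) against Res_shFabp7, where 15.2% were. The share was higher for genes with more members: against Sen, 124 of 237 genes nearest to 1 member were higher, 20 of 24 nearest to 2, and 15 of 15 nearest to 3 or more. Against Res_Ctrl these counts were 93 of 230, 11 of 20 and 7 of 8, and against Res_shFabp7 118 of 241, 15 of 25 and 8 of 10. Zfp703, nearest to 3 members, was the exception with a lower value in Res against Res_Ctrl (log2 -0.47 ± 0.06) and Res_shFabp7 (log2 -0.14 ± 0.05), and both calls were lost with the offset for called length (-0.12 and -0.15). The second was also lost without Res replicate 1 or 2 or any 1 Res_shFabp7 library (-0.15 to -0.10). Its call in the other direction against Sen (log2 0.19 ± 0.06) was lost with the offset for called length (0.065). That call was also lost without Res replicate 2 or 3 or Sen replicate 3 (0.14 to 0.19), and the ratio turned to -0.13 with chromosome medians removed. Against Res_shFabp7 the length offset before re-centring gave 0.10. Neither of these passed. Nudt12 was the other gene with 3 or more members that was not higher against Res_shFabp7, with a log2 ratio that did not pass.

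**Figure D4:**
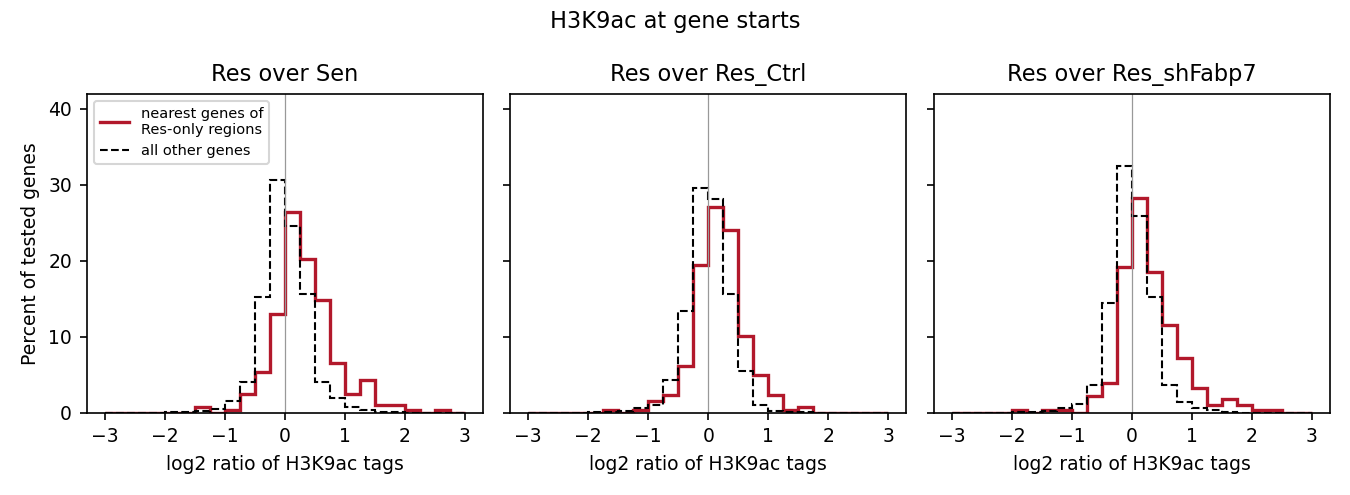
Distribution of the log2 ratio of H3K9ac tags at gene starts (x axis; y axis, percent of tested genes) for the nearest genes of Res-only regions (red) and all other tested genes (dashed), for Res over each of Sen, Res_Ctrl and Res_shFabp7. The nearest genes lie to the right, with medians of 0.27, 0.16 and 0.21.

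By function, mesenchymal and matrix genes were among the nearest genes most often: 7 of 34 listed, Zeb2, Twist2, Tgfb2, Col1a2, Tnc, Thbs1 and Ccn1, where 2.53% of all protein-coding genes were nearest to a member. A nearest gene is taken more often where genes are long or far apart, so these counts have no test. H3K9ac at the start was testable for 4 of the 7 against Sen, and all 4 were higher. Tgfb2, a transforming growth factor (member at chr1:186566637-186569565, 136424 bases from its start), had 87.7, 79.9 and 86.7 CPM in Res, against 29.3, 32.5 and 27.4 CPM in Sen. Its log2 ratio was 1.51 ± 0.10 against Sen (SE, adjusted p = 2.77e-07), 1.74 ± 0.13 against Res_Ctrl and 2.05 ± 0.10 against Res_shFabp7. Thbs1, the matrix protein thrombospondin 1, with 4 members 158814 to 329615 bases from its start, had 128.6 ± 20.5 CPM in Res and 45.3 ± 4.64 CPM in Sen (SD, n = 3 each), a log2 ratio of 1.48 ± 0.11.

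The other 2 tested were Zeb2, a repressor of epithelial genes, and Ccn1, a matricellular protein. Zeb2 had log2 ratios of 0.67 ± 0.06 against Sen, 0.69 ± 0.07 against Res_Ctrl and 0.61 ± 0.06 against Res_shFabp7, and none of the 3 calls held with the offset for called length (0.04, 0.24 and 0.04). Ccn1 had 0.53 ± 0.05, 0.27 ± 0.06 and 0.87 ± 0.05, and its calls against Sen and Res_Ctrl did not hold with that offset (0.24 and 0.15). Of the whole list, 9 of 23 tested genes were higher in Res against Sen and 4 lower, with a median log2 ratio of 0.05. Against Res_Ctrl 7 of 19 were higher and 7 lower, and against Res_shFabp7 11 of 23 were higher and 8 lower. The epithelial markers, none of them nearest to a member, were mostly lower in Res in the same comparisons; their counts are given with the lists without a member.

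Of 33 AP-1, ETS and immediate early factors 4 were nearest to a member, Klf4, Myc, Runx1 and Runx3. Myc, nearest to 5 members that lay 253535 to 666376 bases from its start, had 485, 470 and 534 CPM of H3K9ac in Res, against 374, 373 and 336 CPM in Sen. Its log2 ratio was 0.46 ± 0.06 against Sen, 0.74 ± 0.06 against Res_Ctrl and 0.77 ± 0.05 against Res_shFabp7. Klf4 had 1.02 ± 0.07, 0.61 ± 0.07 and 0.95 ± 0.06 in the same order. Runx1 had 0.31 ± 0.05, 0.23 ± 0.05 and 0.20 ± 0.04, all past the threshold, and lost all 3 calls with the offset for called length, where the ratios were 0.11, 0.22 and 0.0092. Of the list, 13 of 27 tested genes were higher and 4 lower against Sen, with a median log2 ratio of 0.19. Against Res_Ctrl 8 of 25 were higher and 5 lower (median -0.09), and against Res_shFabp7 9 of 26 were higher and 7 lower (median 0.04). Receptor tyrosine kinases and growth factors had 3 of 39 nearest to a member, Hgf, Fgfr1 and Fgf2, none with a tested region at its start.

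Of 45 Wnt, Notch, Hedgehog and BMP genes, 7 were nearest to a member: Lef1, Notch1, Notch2, Notch3, Hes1, Gli3 and Smad6. Here H3K9ac at the start did not go one way. Hes1, a Notch target and repressor, was lower in Res, with 216.6 ± 13.1 CPM in Res and 264.5 ± 6.75 CPM in Sen (SD, n = 3 each), and log2 ratios of -0.29 ± 0.06 against Sen, -0.59 ± 0.06 against Res_Ctrl and -0.40 ± 0.05 against Res_shFabp7. Its call against Sen was lost with the length offset before re-centring (-0.099). Smad6, an inhibitory Smad, had 0.40 ± 0.06, 0.16 ± 0.06 and 0.19 ± 0.05, past the threshold each time but not with the offset for called length (0.19, 0.012 and 0.012). Its call against Res_Ctrl was also lost with DESeq2 and without Res replicate 1 or 2 or any 1 Res_Ctrl library (0.125 to 0.18). Notch1 and Notch2 did not pass in any comparison. Of the list, 11 of 20 tested genes were higher and 3 lower against Sen, with a median log2 ratio of 0.24. Against Res_Ctrl 8 of 21 were higher and 5 lower (median 0.0086), and against Res_shFabp7 10 of 21 were higher and 5 lower (median 0.10).

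Among oncofetal and development genes, Lin28b, Trps1 and Meis1 were nearest to a member, and each had a member at the start. Chemokines, cytokines and checkpoint ligands had 3 of 34, Ccl2, Ccl20 and Entpd1, of which only Entpd1 had a tested start, with log2 ratios of -0.15 ± 0.14, -0.27 ± 0.16 and -0.01 ± 0.15 that did not pass. Of 27 lung and gut endoderm factors only Sox9 was nearest to a member, 14021 bases from its start, and its H3K9ac was higher in Res by a log2 ratio of 1.02 ± 0.10 against Sen, 0.97 ± 0.11 against Res_Ctrl and 1.52 ± 0.11 against Res_shFabp7. The call against Res_Ctrl did not hold with the offset for called length (0.22).

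The lipid lists, which touch the series title on ferroptosis and fatty acid binding proteins, held few nearest genes. Of 25 lipid droplet and fatty acid synthesis genes only Plin2, a coat protein of lipid droplets, was nearest to a member (chr4:86696067-86699172, 25850 bases away). That region had 200, 169 and 182 H3K27ac tags. H3K9ac at the Plin2 start was 230, 239.5 and 253 CPM in Res, against 48.3, 83.6 and 53.5 CPM in Sen, with log2 ratios of 1.93 ± 0.15 against Sen (SE, adjusted p = 9.79e-07), 1.23 ± 0.09 against Res_Ctrl and 1.01 ± 0.10 against Res_shFabp7. Every Res library was over every Sen library.

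Of 24 genes of fatty acid uptake, binding and activation only Rxra, a nuclear receptor, was nearest to a member; its H3K9ac had log2 ratios of -0.10 ± 0.06 against Sen, which did not pass, and of -0.23 ± 0.08 and -0.21 ± 0.07 against Res_Ctrl and Res_shFabp7, past the threshold but not with DESeq2. These calls were also lost without Res replicate 2 or 3, without Res_Ctrl replicate 1 or 2 (-0.24 to -0.21) and without Res_shFabp7 replicate 1 or 3 (-0.22 to -0.18). With chromosome medians removed the ratios were -0.095 and -0.045, and with the length offset before re-centring -0.14 and -0.019, none past the threshold. The list of 23 ferroptosis suppressors, that of 22 ferroptosis drivers, that of 24 integrated stress response genes, that of 23 epithelial markers and that of 34 interferon response and class I genes had 0 nearest genes. Lists without a member could still differ in H3K9ac at their starts. Of the stress response genes 17 of 23 were higher in Res against Sen, 15 of 19 against Res_Ctrl and 17 of 22 against Res_shFabp7, with 0 lower (median log2 ratios of 0.62, 0.47 and 0.58, where 27.8%, 23.6% and 25.8% of all tested genes were higher), and 12 or more were higher and 0 lower under each scaling tried. Of the epithelial markers 9 of 11 were lower in Res against Sen, 11 of 11 against Res_Ctrl and 8 of 11 against Res_shFabp7 (median log2 ratios of -0.63, -0.47 and -0.57, where 25.3%, 18.1% and 22% of all tested genes were lower). Their part in the results for the nearest genes was not tested. With the length offset before re-centring, which also moved the median of all regions up, 1, 5 and 2 epithelial markers were lower and 3, 0 and 5 higher. With that offset re-centred 5, 5 and 5 were lower and 0, 0 and 1 higher. With chromosome medians removed 9, 7 and 10 were lower and 0 higher. The direction thus depended on the scaling against Sen and Res_shFabp7, where it turned before re-centring alone, and not against Res_Ctrl. Of the interferon and class I genes 7 of 14 were higher and 2 lower against Sen, 2 of 13 and 3 against Res_Ctrl, and 7 of 17 and 2 against Res_shFabp7. The ferroptosis suppressors had 8 of 20 higher and 8 lower against Sen, and the drivers 5 of 16 and 5. Fabp7 itself (chr10:57784923-57788450) was 1775034 bases from the closest member, which lies near Mcu.

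The members were partly grouped along the genome. Within 100 kb of each other, 224 members formed groups of 2 or more and 483 stood alone. The largest group had 7 members over 195971 bases around Runx3, a RUNX-family transcription factor (chr4:134974857-135170827), 6 of them nearest to Runx3 and 1 to Syf2. The member 21293 bases before the upstream Runx3 start had the most H3K27ac of the 7, 482, 458 and 428 tags. It lies beside a region at -21.05 to -16.12 kb from that start in Res replicate 1 (525 tags). That neighbouring region also had peaks in every Res_Ctrl and Res_shFabp7 library and in Sen replicates 2 and 3. The member over the upstream start (chr4:135118038-135121149) had 221, 169 and 189 H3K27ac tags and no H3K9ac peak in any library. Its peak covered that start in Res replicate 1 only. In Res replicates 2 and 3 it ended at -0.276 and -0.168 kb from the start, short of the printed window. The member over the downstream start (chr4:135151645-135154298) had 293, 219 and 211 H3K27ac tags, with 210, 238 and 237 H3K9ac tags in Res, 66 in Res_Ctrl replicate 3 and no peak in the other 8 libraries. H3K27ac only in Res in the merged members over both starts follows from the definition of a member. H3K9ac, which the rule did not use, was called in 3 of 3 Res libraries at the downstream start, where 1 Res_Ctrl library also had it.

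**Figure D5:**
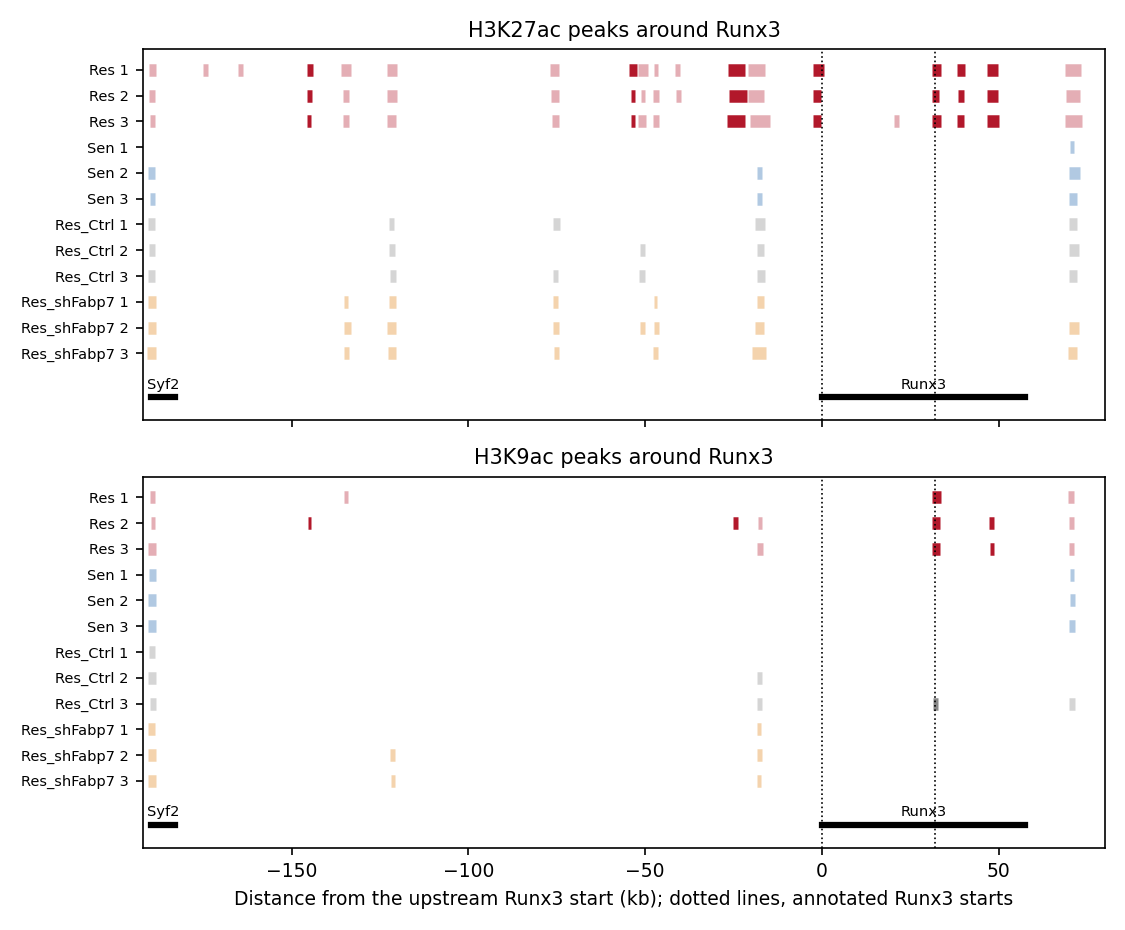
H3K27ac (top) and H3K9ac (bottom) peaks of the 12 libraries around Runx3, by distance from its upstream start (x axis, kb); each row is a library, dark bars are peaks that overlap one of the 7 members and pale bars other peaks, and dotted lines are the annotated starts. Dark H3K27ac bars occur in the 3 Res rows alone by definition, and H3K9ac at the downstream start is in the 3 Res rows and in Res_Ctrl 3.

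The next groups were smaller. Around Cdc42ep3, an effector of the GTPase Cdc42, and Rmdn2, 6 members spanned 261374 bases (chr17:79284441-79545814); the one over the Cdc42ep3 start had 310, 197 and 194 H3K27ac tags and 234, 261 and 355 H3K9ac tags in Res, against H3K9ac peaks of 104 and 114 tags in Res_Ctrl replicates 2 and 3 and 73 in Res_shFabp7 replicate 2. Thbs2, the matrix protein thrombospondin 2, had 5 members over 175244 bases (chr17:14545181-14720424), and none had an H3K9ac peak in any library. Hhat, which adds palmitate to Hedgehog proteins, and Sertad4 had 5 over 123083 bases (chr1:192735557-192858639). Rasgrp1 and Thbs1 had 5 over 243152 bases (chr2:117709911-117953062), again with no H3K9ac.

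By chromosome the members' share of the regions in 3 of 3 Res libraries ran from 1.94% on chromosome X (3 members) and 1.97% on chromosome 10 (15 members) to 5.99% on chromosome 15 (51 members) and 6.79% on chromosome 3 (76 members). Whether copy number differs between the lines was not tested.

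The edge of the definition was soft. A further 224 regions had 3 of 3 Res peaks and 1 peak elsewhere, which was in Res_shFabp7 replicate 3 for 90 of them, and the score of that peak had a median of 68.9. A region near Tsc22d2, for example, had 198, 130 and 161 tags in Res and 77 tags in Sen replicate 2 at a score of 50.2. Just inside, a member near Mtss1 had 153, 79 and 103 tags, and its weakest Res score was 50.0. A further 502 regions had 2 of 3 Res peaks and none elsewhere. Of the members, 150 (21.2%) had a region with a peak in another group within 5 kb. With the same number of best-scored peaks taken from every library, 842 regions met the rule, and 272 of the 707 (38.5%) overlapped one of them.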

How the data were processed

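The submitters' processing notes name Bowtie 1.1.2, MACS 1.4.2 and the mm10 build; whether inputs were used as control is not given in the sources used here. The authors deposited 1 peak list per library for 24 immunoprecipitated libraries; the 4 inputs are not analysed here. Per the file headers, each peak has a tag count (unscaled reads, deposited by the authors as whole numbers), a score (deposited by the authors as 10 times the negative log10 of the caller's p-value; the lowest was 50, a p of 1e-05) and the authors' deposited fold ratio over background (a median of 6.08 at the members, not used for a test). Total reads per library were not in the lists; per the labels, 53 to 158 M reads were made per sample. A place without a peak has no deposited count, so absence means below the caller's threshold.

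Tag counts of merged H3K9ac regions with a peak in all 6 libraries of a comparison (11185, 10300 and 11396 regions for Res against Sen, Res_Ctrl and Res_shFabp7) were fitted with edgeR 4.0.16 (R 4.3.3; TMM, quasi-likelihood test, Benjamini-Hochberg threshold 0.05). The scripts were tested on simulated data. DESeq2 1.42.0 was an alternative, as were DESeq2's size factors, a mean of 50 tags, an offset for called length, chromosome medians removed, a replicate block and leaving out each library. Re-centring of the length offset was added after seeing the data. Error on a log2 ratio is the standard error of a fit of 3 libraries against 3. Where a gene had several tested regions at its starts, the one with most tags stood for it. RefSeq gave starts for 17492 of 21887 protein-coding genes; for the rest either annotated end served. Within a mark and group, at most 0.0101% of intervals recurred exactly between lists, so no list repeats another. That check cannot show whether libraries come from separate cultures. Each library was counted as 1 replicate because the labels call them biological replicates.

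The members and the 14 gene lists were chosen with earlier results of these data known, and no count over them is independent support. Named regions were the 8 with most tags, the 8 with most tags among those with H3K9ac only in Res, those with a tested and changed H3K9ac region (5 per direction), those at starts of listed genes (3 per list), the 5 largest groups within 100 kb and 8 promoters, printed with both Runx3 windows. Map3k8, Camk1d, Nr2f1, Zfp703, Nudt12 and listed genes nearest to a member were named after their values were seen. A result on the oncofetal list is not reported here.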

Additional observations from a re-analysis of the deposited data

How the results depend on the processing

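The number of Res-only regions was 308 with Res peaks at a score of 100 or more and the others as deposited, 1613 with Sen alone as the others and 1386 with Res_Ctrl alone. Leaving out each library gave 707 to 985. With a score of 100 or more for all peaks it was 513, and 308 of the members overlapped one of these. Members with H3K9ac in all Res libraries numbered 93 to 124 with 1 library left out, and the difference in peak number was -2840 to -1205.

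With the offset for called length as planned, the regions higher and lower in Res were 6106 and 126 against Sen, 1166 and 526 against Res_Ctrl, and 6951 and 234 against Res_shFabp7. Nearest genes were 1 lower against Sen, 67 higher and 11 lower against Res_Ctrl, and 220 and 2 against Res_shFabp7. Re-centred, a setting chosen after seeing the data, the regions were 1493 and 954, 815 and 663, and 1461 lower; nearest genes were 87 and 8, 45 and 11, and 15 lower. With chromosome medians removed, regions were 1948 and 1942 against Sen with 19 nearest genes lower, and 1293 and 1948 higher against Res_Ctrl and Res_shFabp7. The cause was not tested. With 1 library left out, regions higher and lower numbered 2647 to 3020 and 2229 to 2787 (Sen), 1930 to 2151 and 1748 to 2019 (Res_Ctrl), 2619 to 2927 and 2151 to 2743 (Res_shFabp7). Nearest genes numbered 142 to 160 and 21 to 27, 96 to 104 and 19 to 27, and 128 to 144 and 17 to 23.

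Whether the labels' replicate numbers pair the samples is not known. Correlations of same-numbered deviations from the group means were 0.13, -0.04 and 0.09 (Sen), 0.09, -0.02 and 0.06 (Res_Ctrl) and -0.02, -0.02 and -0.12 (Res_shFabp7). The best match had the same number for Res replicate 1 against Sen and replicates 1 and 3 against Res_Ctrl, and for no other. Deviations from a mean of 3 libraries depend on each other, so low values cannot exclude pairing. With a replicate block, 160, 110 and 138 nearest genes were higher, against 159, 111 and 141 without it.

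Of 76 log2 ratios of named genes, 37 kept direction and side of the threshold under every alternative run. Sign changes were as follows. With the planned length offset Rxra was 0.011, Entpd1 0.29 and Notch1 0.25 (Sen), Syf2 0.050 and Nr2f1 -0.089 (Res_Ctrl), and Syf2 0.36, Entpd1 0.31 and Zfp703 0.10 (Res_shFabp7). Re-centred, Entpd1 was 0.026 (Sen), Syf2 0.011 and Nr2f1 -0.13 (Res_Ctrl), and Arhgef2 -0.10, Syf2 0.11, Entpd1 0.061 and Nr2f1 -0.13 (Res_shFabp7). With chromosome medians removed Rxra was 0.072, Notch1 0.15 and Zfp703 -0.13 (Sen), Notch2 -0.0041 (Res_Ctrl) and Entpd1 0.12 (Res_shFabp7). With 1 library left out Syf2 was -0.15 to 0.15 and Notch1 -0.19 to 0.13 (Sen), Notch2 -0.074 to 0.068 and Nr2f1 -0.019 to 0.13 (Res_Ctrl), and Syf2 -0.30 to 0.00067, Entpd1 -0.12 to 0.082 and Notch1 -0.067 to 0.27 (Res_shFabp7). Peak lists hold no tags below the caller's threshold, so levels at uncalled places are unknown.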
